A study of Rattus norvegicus with 8 samples.

Results

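The genes described here are 39 genes of the DNA damage response and DNA repair, taken from homologous recombination, the Fanconi pathway, the replication checkpoint, and mismatch and excision repair. A gene was followed through the probe set whose annotation names that symbol alone. In this way 35 of the 39 were measured, each by 1 probe set, among 18166 genes on the array. Atr, Blm, Tipin and Xrcc3 were not analysed here.

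DNA replication leaves gaps, stalled forks and breaks, and cells that copy their genome raise the machinery that deals with them. In homologous recombination a broken end is trimmed and repaired from the sister copy, with Brca1 and its partner Bard1 at the start and Brca2, held by Palb2, acting after them. The Fanconi proteins unhook crosslinked strands and protect forks, the checkpoint kinases hold the cell cycle while DNA is damaged, and mismatch, base and nucleotide excision repair replace wrong or damaged bases. Adult liver is a mostly resting tissue whose hepatocytes re-enter the cell cycle when part of the organ is removed.

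Liver RNA came from male rats of the outbred Sprague-Dawley strain, fed ethanol chronically (EtOH) or pair-fed a carbohydrate control diet (CHO). Animals were untreated or received AM21, an oligonucleotide built with locked nucleic acid that is antisense to the microRNA miR-21, by intraperitoneal injection at 7.5 mg/kg, 72 h ahead of partial hepatectomy (PHx) and once more directly after it. Liver was frozen at the operation (0 h) and 24 h after 70% of the organ had been removed, which gives 8 groups: EtOH or CHO, with or without AM21, at 0 h or 24 h. Each group is 1 array, made from the pooled RNA of 3 rats with AM21 or 4 untreated rats, and the same rats gave both times, so there are 4 matched pools. Every animal underwent PHx, and no sham-operated liver was analysed here, so regrowth, surgery and time of day cannot be told apart. The ages of the rats are not given in the labels. The AM21 and untreated rats carry separate ranges of identifiers, so AM21 and cohort cannot be told apart, and no rats given a control oligonucleotide were analysed here. For the change after PHx and its differences by diet and AM21, p-values rest on how far the changes of these 4 pools lay from the fit. In the fits of diet and of AM21 averaged over time, both arrays of a pool were treated as independent, although the same rats gave both. How far single animals differed is unknown here.

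The target of AM21 is shown first, followed by stretches ahead of a RefSeq start of 6 of the repair genes. Bard1, Chek1, Topbp1 and Rad50 rose, Ung did not pass and Xpc fell. All but Xpc were picked from genes that hold letters searched for as E2F sites, so the stretches do not show how common a match is. Of the 22 repair genes that rose and had a promoter, 9 held a match. In the microRNA the capitals mark the seed, bases 2 to 8. In the promoters the capitals mark letters searched for as E2F sites, the binding sites of the factors that switch on S phase genes. The sequences are from RefSeq on rat build GRCr8, read 5′ to 3′ on the strand of the gene, and each promoter stretch is 80 bases. For Bard1, Chek1 and Ung the stretch lies at least partly within the annotated span of the gene, which begins further upstream.
rno-miR-21-5p (chr10:71902653-71902674, minus strand): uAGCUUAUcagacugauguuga
Bard1 (chr9:80143917-80143996, minus strand): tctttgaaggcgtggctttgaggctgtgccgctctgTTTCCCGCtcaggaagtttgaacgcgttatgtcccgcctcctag
Chek1 (chr8:44629844-44629923, minus strand): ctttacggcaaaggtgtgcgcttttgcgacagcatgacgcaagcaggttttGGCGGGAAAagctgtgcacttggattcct
Topbp1 (chr8:112766711-112766790, plus strand): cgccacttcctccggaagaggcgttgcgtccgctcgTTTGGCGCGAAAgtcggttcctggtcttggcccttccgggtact
Rad50 (chr10:38362153-38362232, minus strand): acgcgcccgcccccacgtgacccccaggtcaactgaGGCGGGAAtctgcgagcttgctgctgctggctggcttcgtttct
Ung (chr12:48154046-48154125, minus strand): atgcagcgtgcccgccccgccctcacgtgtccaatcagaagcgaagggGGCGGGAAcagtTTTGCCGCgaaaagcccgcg
Xpc (chr4:125578085-125578164, minus strand): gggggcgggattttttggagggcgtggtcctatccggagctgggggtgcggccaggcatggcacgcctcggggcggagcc

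RefSeq promoters, each 250 bases before to 50 bases after a start, were matched by symbol for 30 of the 35 genes. The letters TTTGGCGC, TTTCCCGC, TTTCGCGC, TTTGCCGC and GGCGGGAA were searched on both strands, and a stretch can match more than 1 of them where they overlap. At least 1 of these words stood in the promoters of 11 of the 30 repair genes (36.7%), against 788 of 14564 genes on the array (5.41%) and 145 of the 873 array genes that rose after PHx (16.6%). Among the repair genes that rose, 9 of 22 held a match (40.9%): Bard1, Chek1, Clspn, Fancd2, Msh6, Rad50, Rad51ap1, Timeless and Topbp1. Of the 8 with a promoter that did not rise, Atm and Ung held a match. The cell cycle homology region, searched as TTTGAA or TTCGAA, was found in 8 of 30 repair promoters (26.7%), in 18.3% of all array promoters and in 24.9% of those of array genes that rose. The CCAAT box was found in 13 of 30 (43.3%), in 38.9% and in 49.9%. A match is a description of the letters and not a measured binding site.

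Before PHx many of these genes were close to the level that the array gives for genes liver is not known to use. As a guide, the 95th percentile of 1344 smell and pheromone receptor genes lay between 4.35 and 4.56 on the log2 scale in the 8 arrays, a reference chosen after the values had been seen. At 0 h, 16 of the 35 repair genes were above that percentile on all 4 arrays and 16 on no array. At 24 h, 31 were above it on all 4 arrays, and Mus81 and Neil3 were above it on none. Levels and differences below are log2 values of the deposited robust multi-array average (RMA), 4 arrays are listed in the order CHO untreated, CHO AM21, EtOH untreated and EtOH AM21, and a level is given only against the same gene on other arrays.

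**Figure D1:**
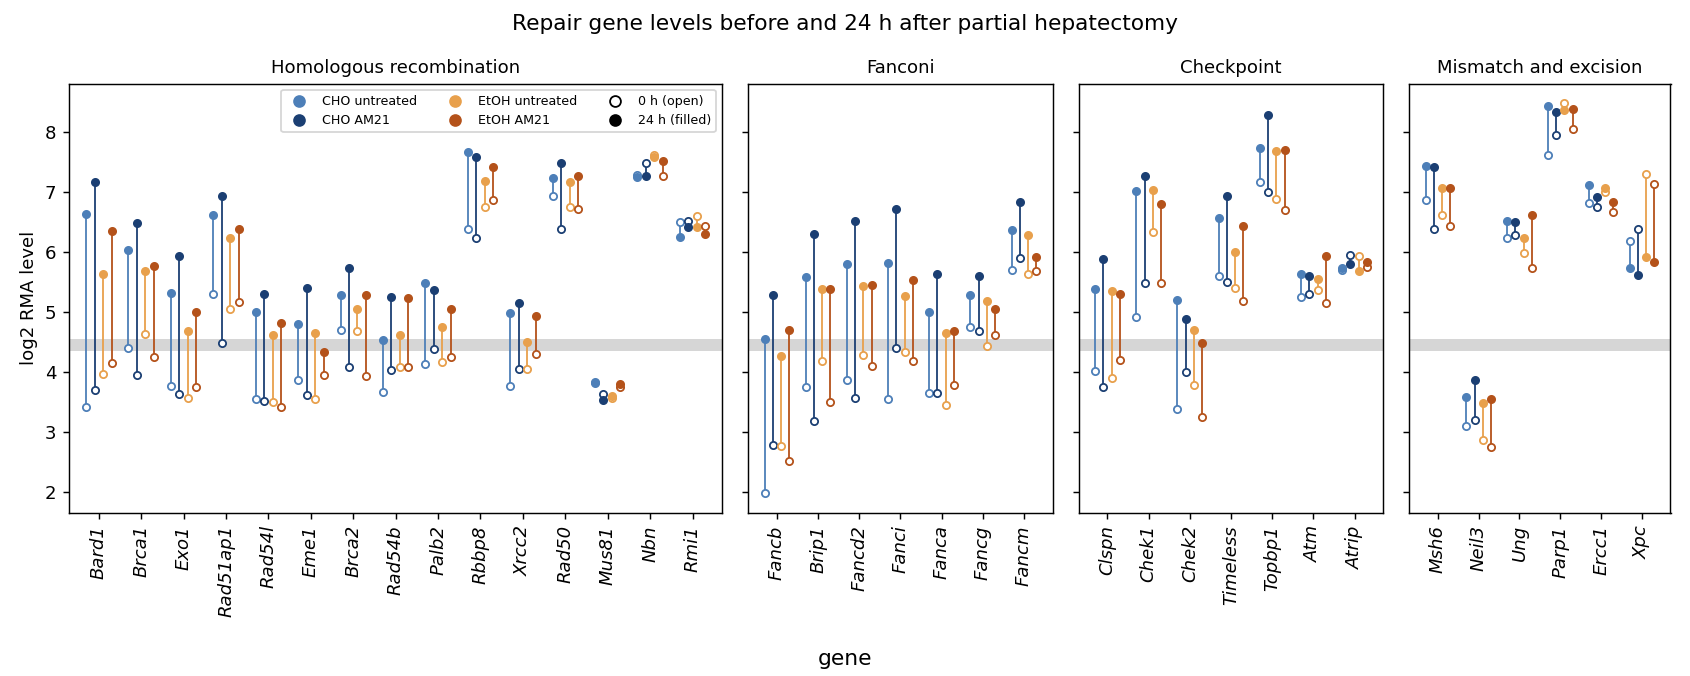
Log2 RMA level (vertical axis) of the 35 repair genes, by role, in the 4 pools at 0 h (open circles) and 24 h (filled circles), with a line joining the 2 arrays of a pool. The grey band spans 4.35 to 4.56, the 95th percentile of receptor genes in the 8 arrays. At 0 h 16 genes are above the percentile of their array on no array and 16 on all 4, and at 24 h 31 are above it on all 4; Nbn, Rmi1, Atrip and Mus81 stay near their 0 h level and Xpc falls.

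The first comparison asked how repair genes changed within a day of PHx. Of the 35 genes, 26 rose and 1, Xpc, fell at an adjusted p under 0.05 (limma, Benjamini-Hochberg over 18166 genes, pool as block), where 5.65% of all genes rose and 4.43% fell. The median change was 0.93, against -0.02 over all genes. Each of the 26 was higher at 24 h in every one of the 4 pools, and their pool changes ran from 0.23 to 3.46. The lowest 24 h array lay above the highest 0 h array for 27 of the 35 genes (77.1%), the 26 and Atm, against 10% of all genes. In the fit 15 genes rose at least 2-fold, and 9 did so in every pool. For 18 of the 26 the mean level at 0 h was under 5, so their fitted folds rest on low 0 h values. In whole liver, fewer cells of a type and less RNA per cell cannot be told apart.

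Brca1 and Bard1 form a complex that acts early in recombination, and both rose. Bard1, the partner that stabilises Brca1, read 3.43, 3.71, 3.97 and 4.15 at 0 h and 6.64, 7.17, 5.64 and 6.36 at 24 h. Its mean went from 3.81 ± 0.31 (SD, n = 4 arrays) to 6.45 ± 0.64, a rise of 2.64 ± 0.29 (SE) with an adjusted p of 0.0027. Its fitted change was the largest of the 35, but Bard1, Fancb and Brip1, which had the next largest, were below the receptor percentile on every 0 h array, so no order is read from these sizes. The 2 CHO arrays were the highest at 24 h and the lowest at 0 h. Brca1, the ubiquitin ligase of the pair, read 4.40, 3.96, 4.63 and 4.25 at 0 h and 6.04, 6.48, 5.69 and 5.77 at 24 h. It rose by 1.68 ± 0.22 (adjusted p = 0.00437), with no overlap between times, and its lowest 0 h and highest 24 h arrays came from the same pool, CHO AM21.

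Factors that trim broken ends and factors of strand exchange also rose. Exo1, a nuclease that lengthens the trimmed end and also serves mismatch repair, read 3.77, 3.64, 3.58 and 3.76 at 0 h and 5.32, 5.94, 4.69 and 5.00 at 24 h. The SD was 0.09 over the 0 h arrays and 0.53 over the 24 h arrays, and the rise was 1.55 ± 0.20 (adjusted p = 0.00413). Rad51ap1, which stimulates strand exchange, read 5.30, 4.48, 5.06 and 5.17 at 0 h and 6.61, 6.94, 6.24 and 6.38 at 24 h. Its rise was 1.54 ± 0.22 (adjusted p = 0.00618), from the lowest 0 h to the highest 24 h value in the CHO AM21 pool. Rad54l, a motor protein of strand exchange, rose by 1.44 ± 0.13 (adjusted p = 0.00184), with 0 h levels between 3.42 and 3.55 and 24 h levels between 4.62 and 5.31. Of the other members, Eme1, Brca2, Rad54b, Palb2, Rbbp8, Xrcc2 and Rad50 rose by 0.59 (Rad50) to 1.05 (Eme1).

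Some of these genes encode partners within a complex, and their values are set side by side with no test between them. Rad50 and Nbn are subunits of the complex that binds broken ends first. Rad50 read 6.93, 6.38, 6.75 and 6.72 at 0 h and 7.24, 7.49, 7.17 and 7.26 at 24 h, a rise of 0.59 ± 0.15 that was just past the threshold (adjusted p = 0.0495). Nbn read 7.29, 7.49, 7.62 and 7.27 at 0 h and 7.25, 7.26, 7.58 and 7.52 at 24 h. Its times overlapped, and the difference was -0.02 ± 0.12 (adjusted p = 0.958). Of the crossover nuclease pair, Eme1 rose by 1.05 ± 0.21 (adjusted p = 0.0218) and Mus81 differed by -0.01 ± 0.10 (adjusted p = 0.983), with all of its levels between 3.54 and 3.84 and never above the receptor percentile. Rmi1, a subunit of the complex that dissolves crossed strands, differed by -0.16 ± 0.10 (adjusted p = 0.384), although its 24 h arrays (6.26 to 6.42) lay below its 0 h arrays (6.44 to 6.60). In all, 12 of the 15 recombination genes rose and 3 did not pass, with a median change of 0.95.

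Of the Fanconi genes described, 7 of 7 rose, with a median change of 1.71, where 5.65% of all genes rose. Of 11 other Fanconi genes measured, 2 rose, with a median change of 0.11. Fancb, a subunit of the core ubiquitin ligase encoded on the X chromosome, read 1.99, 2.79, 2.78 and 2.52 at 0 h and 4.55, 5.28, 4.27 and 4.71 at 24 h. It rose by 2.18 ± 0.18 (adjusted p = 0.00176), from levels that were all below the receptor percentile. Brip1, the helicase that binds Brca1, read 3.75, 3.19, 4.18 and 3.51 at 0 h and 5.59, 6.31, 5.38 and 5.38 at 24 h. It rose by 2.01 ± 0.28 (adjusted p = 0.00554), also from 0 h levels below that percentile. The CHO AM21 pool had the lowest 0 h and the highest 24 h array of Brip1. That pool had the largest change in 6 of the 7 Fanconi genes, against 24.1% of all genes, and also in 5 of 6 proliferation genes.

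Fancd2 and Fanci form the clamp that the core complex marks with ubiquitin. Fancd2 read 3.88, 3.57, 4.28 and 4.10 at 0 h and 5.81, 6.51, 5.43 and 5.45 at 24 h, a rise of 1.84 ± 0.28 (adjusted p = 0.00746). Fanci read 3.56, 4.41, 4.34 and 4.19 at 0 h and 5.82, 6.72, 5.27 and 5.54 at 24 h, a rise of 1.71 ± 0.24 (adjusted p = 0.00581). For both genes the CHO arrays were the 2 highest at 24 h, and neither gene overlapped between times. The remaining core complex genes rose less: Fanca by 1.36 ± 0.18, Fancg by 0.65 ± 0.12 and Fancm, the motor that anchors the complex to DNA, by 0.62 ± 0.14 (adjusted p = 0.00456, 0.0157 and 0.0296).

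Of the 7 checkpoint genes 5 rose, with a median change of 1.06. Clspn, which brings Chek1 to its activating kinase, read 4.02, 3.76, 3.90 and 4.21 at 0 h and 5.39, 5.88, 5.36 and 5.30 at 24 h, a rise of 1.51 ± 0.17 (adjusted p = 0.00294). Chek1, the effector kinase of the replication checkpoint, read 4.92, 5.49, 6.33 and 5.49 at 0 h and 7.02, 7.26, 7.03 and 6.80 at 24 h. The 24 h arrays spread less (SD 0.19) than the 0 h arrays (SD 0.58), and the rise was 1.47 ± 0.22 (adjusted p = 0.00732). Chek2, the effector kinase for double-strand breaks, rose by 1.21 ± 0.17, Timeless, a fork protection protein, by 1.06 ± 0.15, and Topbp1, an activator of the apical kinase Atr, by 0.91 ± 0.14 (adjusted p = 0.00559, 0.00609 and 0.00746).

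Atm and Atrip did not pass. Atm, the apical kinase for double-strand breaks, read 5.26, 5.31, 5.37 and 5.15 at 0 h and 5.63, 5.60, 5.56 and 5.93 at 24 h. Its times did not overlap, but the difference of 0.41 ± 0.13 had an adjusted p of 0.0931. Among only the genes with a mean level of at least 5 it passed (adjusted p = 0.0415). Atrip, the partner of Atr, differed by -0.07 ± 0.11 (adjusted p = 0.768), higher in 2 of 4 pools.

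Mismatch and excision genes moved least, with 2 of 6 higher, 1 lower and a median change of 0.38. Msh6, which recognises single mismatches, rose by 0.67 ± 0.13 (adjusted p = 0.018), from 6.39 to 6.87 at 0 h to 7.06 to 7.44 at 24 h. Neil3, a base excision glycosylase known from dividing cells, rose by 0.64 ± 0.10 (adjusted p = 0.0103) but stayed at 3.49 to 3.88 at 24 h, below the receptor percentile. Ung, which removes uracil from DNA, differed by 0.40 ± 0.14, Parp1, the sensor of strand breaks, by 0.36 ± 0.16 and Ercc1, a subunit of the excision nuclease, by 0.17 ± 0.10 (adjusted p = 0.129, 0.222 and 0.356). Parp1 was higher at 24 h in 3 of 4 pools, and its 24 h arrays were between 8.34 and 8.44 while its 0 h arrays ran from 7.62 to 8.48.

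Xpc, the damage sensor that starts nucleotide excision repair across the genome, went the other way. It read 6.19, 6.39, 7.30 and 7.13 at 0 h and 5.73, 5.62, 5.92 and 5.83 at 24 h. All 4 pools fell, by 0.46 and 0.76 in CHO and by 1.38 and 1.30 in EtOH, where pools are in the order untreated and AM21. The fitted change was -0.98 ± 0.17, a level 1.97-fold higher at 0 h (adjusted p = 0.0137). The 24 h arrays lay within an SD of 0.13, against 0.55 at 0 h, where both EtOH arrays were above both CHO arrays. Without the EtOH AM21 pool the fall was -0.87 and did not pass (adjusted p = 0.0559).

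Of the 27 calls, 16 held without every pool in turn, while 11 did not pass without some pool; all differences kept their direction. Without the CHO untreated pool 17 genes rose, and Brca2, Eme1, Fancd2, Fancg, Fancm, Msh6, Rad50, Rbbp8 and Xrcc2 had adjusted p from 0.0512 (Fancd2) to 0.11 (Fancm). Without the CHO AM21 pool 18 rose, and Brca2, Eme1, Fancg, Fancm, Msh6, Rad50, Rbbp8 and Xrcc2 had adjusted p from 0.0556 (Eme1) to 0.113 (Rad50). Without the EtOH AM21 pool 22 rose, and Brca2, Msh6, Neil3, Rad50 and Xpc had adjusted p from 0.0534 (Neil3) to 0.128 (Rad50). Without the EtOH untreated pool 22 rose as well, and Eme1, Fancg, Fancm and Rad50 had adjusted p from 0.0602 (Fancg) to 0.0901 (Rad50). Rad50 passed in none of the 4.

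Other genes of the same pathways came from a list of 88 measured genes, of which 26 rose and 1 fell, with a median change of 0.23. Of all genes 5.65% rose and 4.43% fell, so small lists can hold few or no calls and no difference between pathways is read from their counts. Recombination and resolution genes rose in 10 of 19, checkpoint and damage signalling genes in 6 of 9, Fanconi genes in 2 of 11 (median changes 0.53, 0.56 and 0.11), and bypass and direct reversal genes in 3 of 10. Base excision and single-strand break genes rose in 3 of 18, end joining genes in 1 of 6 (Xrcc5), mismatch genes in 1 of 4, and nucleotide excision genes in 0 of 11 by limma, with 3 of them, all lower at 24 h, at an unadjusted p under 0.05.

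The 5 largest rises on that list were in genes that act beside the ones described. Ube2t, the enzyme that passes ubiquitin to Fancd2, read 5.01, 4.73, 5.29 and 4.71 at 0 h and 7.59, 8.59, 7.22 and 7.41 at 24 h, a rise of 2.77 ± 0.28 (adjusted p = 0.00209). H2ax, the histone that is phosphorylated around breaks, rose by 2.12 ± 0.19, and Mdc1, which reads that mark, by 1.97 ± 0.19 (adjusted p = 0.00182 and 0.00203). Rad18, the ligase that starts lesion bypass, rose by 1.96 ± 0.21, and Rpa2, a subunit of the single-strand binding protein, by 1.83 ± 0.20 (adjusted p = 0.00262 and 0.00285). Rad51d, a recombination factor that acts with Xrcc2, was the gene that fell, by 0.69 on the log2 scale (SE 0.14, adjusted p = 0.0239), from 6.65 to 6.97 at 0 h to 5.53 to 6.35 at 24 h. Its partner Xrcc2 rose by 0.85 ± 0.15 (adjusted p = 0.0141).

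**Figure D2:**
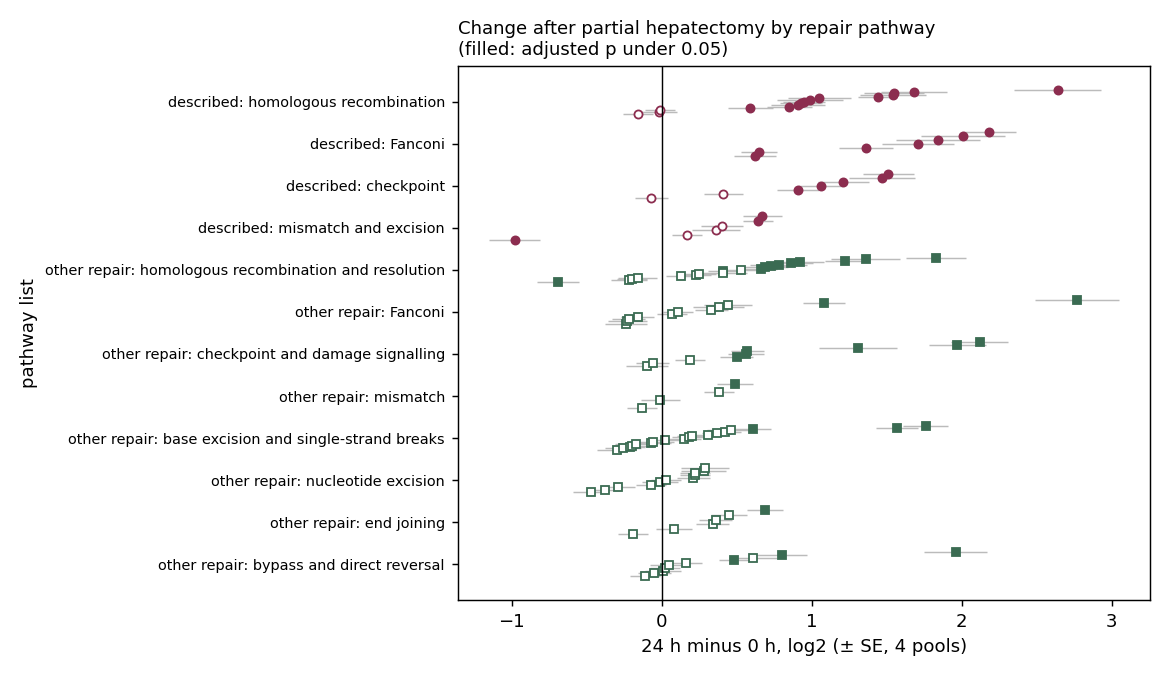
Change from 0 h to 24 h (horizontal axis, log2, ± SE over 4 pools) of every measured repair gene, grouped by pathway. Circles are the 35 genes described and squares the 88 other repair genes, and filled symbols have an adjusted p under 0.05. The 7 Fanconi genes described all lie right of 0, and 2 of the 11 other Fanconi genes have filled symbols. Xpc and Rad51d are the 2 filled symbols on the left, and the 11 other nucleotide excision genes have no filled symbol.

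Genes of cell division and of the damage response were read beside the repair genes. The 6 proliferation genes examined all rose, Mki67 by 3.51 ± 0.40, Top2a by 3.91 ± 0.45 and Pcna, the sliding clamp of replication and repair, by 2.11 ± 0.18 (adjusted p = 0.00299, 0.00308 and 0.00176). Among genes that p53 induces after damage, Ccng1 rose by 1.07 ± 0.20 and Mdm2 by 0.76 ± 0.12 (adjusted p = 0.0162 and 0.0103). Cdkn1a and Gadd45a did not pass (adjusted p = 0.142 and 0.613). Cdkn1a changed by 2.86 and 2.57 in the CHO pools and by 0.02 and 0.09 in the EtOH pools, and Gadd45a by -0.35 and -0.28 in CHO and by 0.49 and 1.13 in EtOH. The diet difference in the response was -2.66 for Cdkn1a and 1.13 for Gadd45a (adjusted p = 0.0515 and 0.331). DNA damage itself was not measured.

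The 5 hepatocyte markers were at 10.35 to 12.42 on every array and none passed in either direction; their summed linear level was 18211 to 18391 at 0 h and 17676 to 18070 at 24 h. Of 6 neutrophil and monocyte markers S100a8 and S100a9 rose, with a summed level of 282 to 405 at 0 h and 411 to 1003 at 24 h, while Mpo and Elane were never above the receptor percentile. Of 11 lymphocyte markers Cd3d, Cd8a and Nkg7 fell (sum 273 to 309, then 212 to 240), with Cd3e, Cd3g, Ms4a1, Gzmb and Cd2 never above the percentile. Of 8 Kupffer cell markers Marco rose and Clec4f and Adgre1 fell (sum 1785 to 2479, then 1553 to 2609), 3 of 5 sinusoidal endothelial markers fell (sum 903 to 1173, then 678 to 1042), and 2 of 7 stellate markers fell (sum 493 to 688, then 457 to 551). None of the 6 cholangiocyte markers (sum 121 to 188, then 143 to 207) or the 3 erythroid markers (sum 3533 to 3786, then 2011 to 4341) passed. The part of other cell types in the repair gene changes was not tested.

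The second comparison asked whether the response to PHx differed between EtOH and CHO livers. The repair genes rose by a median of 0.94 in the CHO untreated pool, 1.23 in CHO AM21, 0.62 in EtOH untreated and 0.89 in EtOH AM21, while the medians over all genes were between -0.02 and 0.01. Of the 26 genes that rose, 22 had their smallest change in an EtOH pool, 17 of them in EtOH untreated, and 20 had their largest change in CHO AM21. Over all 35, the largest change was in CHO AM21 for 21 genes (60.0%, against 24.1% of all genes) and the smallest in EtOH untreated for 22 (62.9%, against 23.4%). The 6 proliferation genes had the same order of pools, with medians of 3.88, 5.10, 2.11 and 2.82, and the part of that difference in the repair genes was not tested.

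By limma, 0 of the 35 genes and 0 of all 18166 genes (0% called) had a diet difference in the PHx response at an adjusted p under 0.05, with 11 repair genes and 1371 of all genes at an unadjusted p under 0.05. This fit leaves 1 residual degree of freedom. On simulated arrays, with a spread taken from a fit without interactions, it recovered 0 of 50 genes changed by 3 on the log2 scale. On the real arrays Cdkn1a, at -2.66, had an adjusted p of 0.0515 by limma. The simulated spread differs from that of this fit, so the simulation does not give the size this fit can detect. The difference, EtOH minus CHO, was negative for 29 of the 35 genes with a median of -0.38, against 0.00 over all genes. In 16 genes (45.7%) both EtOH pools changed less, or fell more, than both CHO pools, which held for 17.7% of all genes. The reverse held for Nbn and Mus81 (5.71%), against 18.7% of all genes.

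Bard1 had the smallest p of the 35. It rose by 3.21 and 3.46 in the CHO pools and by 1.68 and 2.21 in the EtOH pools, a difference of -1.39 ± 0.24 (adjusted p = 0.184). With a variance prior that follows the level, 1.03% of all genes passed with a lower value in EtOH, and 3 repair genes did: Bard1 (adjusted p = 0.00819), Fanci (0.0400) and Fancd2 (0.0410). The difference for Fanci was -1.14 ± 0.25 and for Fancd2 -1.19 ± 0.28 (adjusted p = 0.271 and 0.334 in the fit over all genes). Brip1, Rbbp8, Chek1, Brca1, Exo1, Xpc, Xrcc2 and Fancb were the other 8 with an unadjusted p under 0.05, at differences of -0.95 (Brip1) to -0.61 (Xrcc2). Xpc belongs to them through its larger fall in EtOH.

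**Figure D3:**
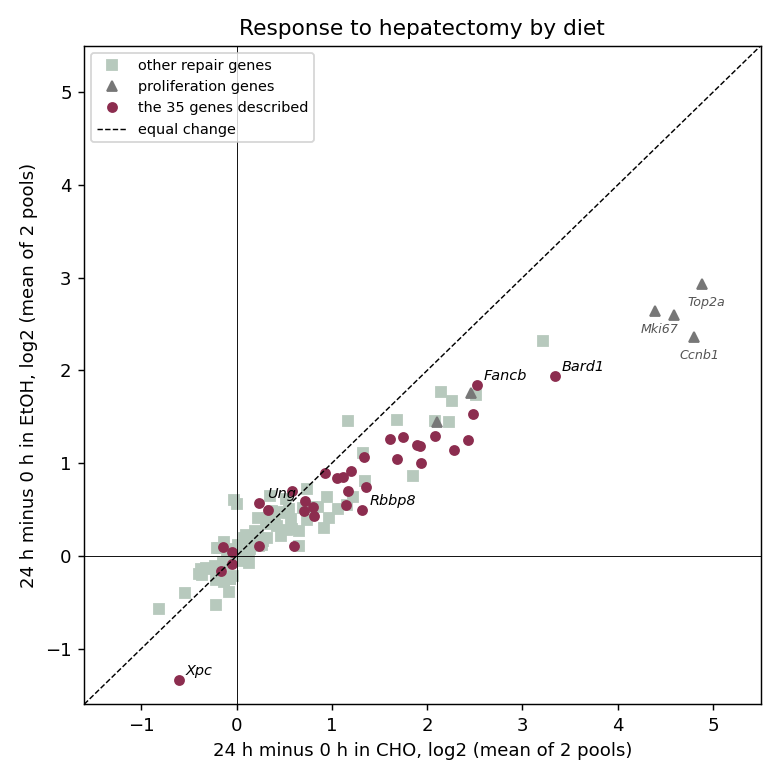
Mean change from 0 h to 24 h in the 2 CHO pools (horizontal axis, log2) against that in the 2 EtOH pools (vertical axis, log2), for the 35 repair genes (circles), 88 other repair genes (squares) and 6 proliferation genes (triangles). The dashed line marks equal change. Bard1 lies at 3.34 and 1.94 and most circles lie below the line, and the differences between the diets did not pass over all 18166 genes.

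Levels at each time were set side by side for the 2 diets with no test, and 0 of the 35 genes passed for diet or its interaction with PHx in the fits over all genes. At 0 h, 16 of the 35 were above the receptor percentile on no array, so a lack of difference at 0 h is not read from these levels. At 24 h both EtOH arrays were below both CHO arrays for 22 of 35 genes (62.9%, against 18.4% of all genes), and above them for Nbn and Xpc (5.71%, against 19.1%). The 22 included Brca1, Brca2, Bard1, Palb2, Fancd2, Fanci, Brip1, Chek2 and Clspn. In the untreated pair of 24 h arrays 30 genes were lower and 5 higher in EtOH, with a median difference of -0.23. In the AM21 pair 28 were lower and 7 higher, with a median of -0.46. At 0 h the medians were 0.10 and 0.00, and both EtOH arrays were above both CHO arrays for 6 genes (17.1%, against 20.2% of all genes) and below for 7 (20%, against 19.2%). The 6 were Bard1, Rbbp8, Rad54b, Fancd2, Xpc and Parp1.

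Averaged over both times and treatments, 0 of the 35 genes differed between the diets at an adjusted p under 0.05 by limma, where 11 of all genes did (0.0606%), and 3 repair genes had an unadjusted p under 0.05. Those were Xpc (EtOH minus CHO 0.56 ± 0.16, adjusted p = 0.330), Timeless (-0.40 ± 0.14, adjusted p = 0.416) and Neil3 (-0.27 ± 0.11, adjusted p = 0.467). For Xpc the difference was 1.11 and 0.74 at 0 h and 0.19 and 0.20 at 24 h, in the untreated and the AM21 pair. Timeless read 5.60 and 5.51 in CHO against 5.40 and 5.19 in EtOH at 0 h, and 6.56 and 6.94 against 6.0 and 6.43 at 24 h, so both EtOH arrays were lower at both times. The 8 Kupffer cell markers were all higher in EtOH in this fit, each with an unadjusted p under 0.05 and none past the threshold, at a summed level of 1553 to 1888 in CHO and 2283 to 2609 in EtOH. Their part in the diet differences was not tested.

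**Figure D4:**
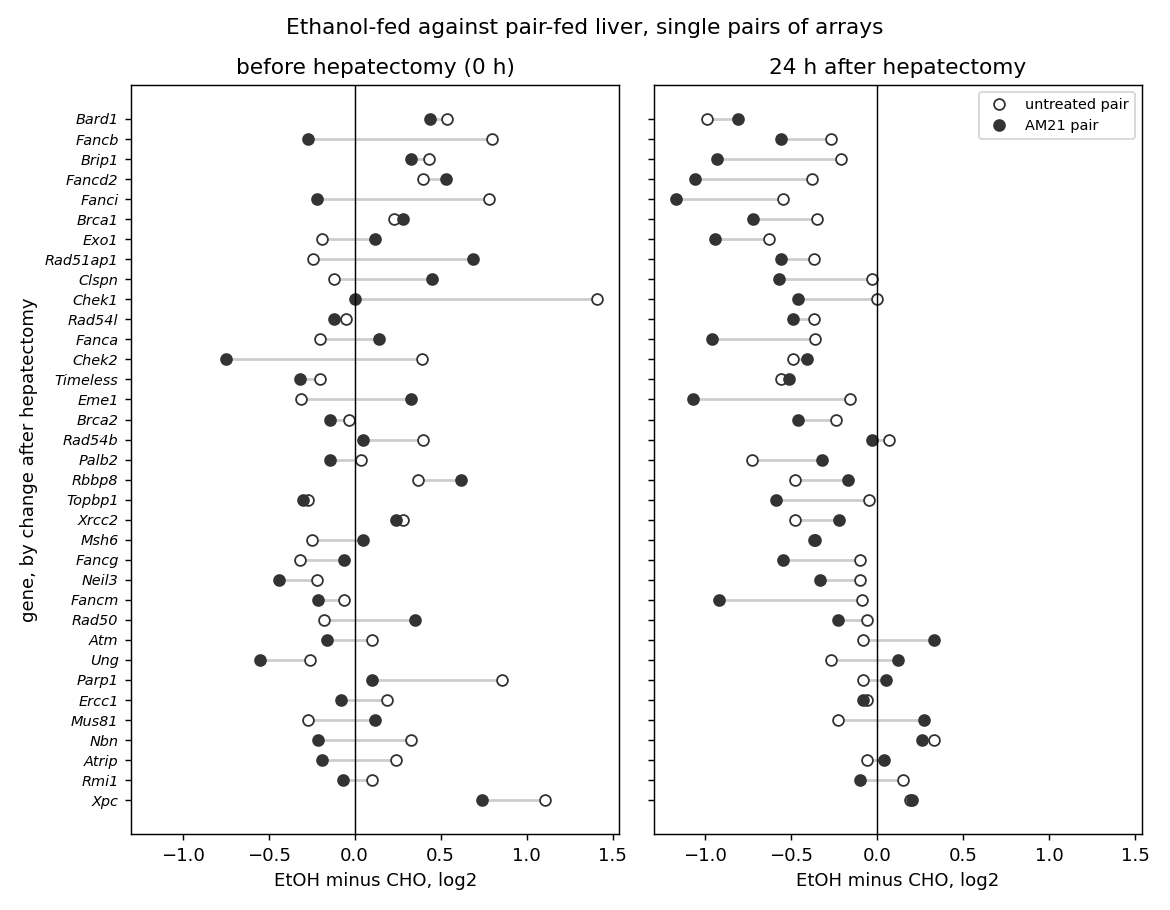
EtOH minus CHO level (horizontal axes, log2) of the 35 repair genes, ordered by their change after PHx, in the untreated pair (open circles) and the AM21 pair (filled circles) of arrays at 0 h (left) and 24 h (right). Each circle is a difference between 2 single arrays and has no replicate check. At 24 h most circles lie left of 0, 30 of 35 in the untreated pair and 28 of 35 in the AM21 pair, while at 0 h they lie on both sides.

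The third comparison asked whether AM21 moved repair genes. By limma, 0 of the 35 genes and 0 of all genes (0% called) differed between AM21 and untreated pools at an adjusted p under 0.05, with 1 repair gene and 1118 of all genes at an unadjusted p under 0.05. That gene was Rad54b, a motor protein related to Rad54l, at 0.42 ± 0.14 (adjusted p = 0.767). It read 3.68 and 4.08 untreated against 4.03 and 4.08 with AM21 at 0 h, and 4.54 and 4.62 against 5.26 and 5.23 at 24 h, where CHO precedes EtOH, so the AM21 arrays were apart at 24 h alone. At 24 h 25 genes were higher with AM21 in the CHO pair (median 0.31) and 24 in the EtOH pair (median 0.08). At 0 h the medians were -0.01 and -0.17.

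The change after PHx, AM21 minus untreated, differed by a positive value in 29 of the 35 genes, with a median of 0.18 against -0.02 over all genes. By limma, 0 of the 35 and 0 of all genes (0% called) passed for this interaction, with 3 repair genes and 1078 of all genes at an unadjusted p under 0.05. Simulated recovery was again 0 of 50 at a size of 3, with the same limit from the simulated spread. Brca2, a mediator of strand exchange, rose by 0.58 and 0.37 in the untreated pools and by 1.67 and 1.34 in the AM21 pools, CHO first. The difference was 1.03 ± 0.24 (adjusted p = 0.588). Its 24 h levels were 5.29, 5.74, 5.05 and 5.28, and its 0 h levels were 4.71 and 4.68 untreated against 4.08 and 3.94 with AM21, so the 2 treatments were further apart before PHx than after it. Brip1 differed by 0.97 ± 0.26 and Brca1 by 0.67 ± 0.25 (adjusted p = 0.707 and 0.797), and for both the AM21 arrays were likewise the lower at 0 h in each diet. The AM21 levels of Brca2 at 0 h were below the receptor percentile of their arrays (4.48 in CHO, 4.53 in EtOH). Brip1 was above that percentile on no 0 h array and Brca1 on 1, so the 0 h differences of these genes involve readings near the receptor level. Other genes moved beside this difference. The 6 proliferation genes had a median of 0.97, with 4 at an unadjusted p under 0.05. The 6 neutrophil and monocyte markers were all negative (median -0.86, 4 at an unadjusted p under 0.05), with a summed level at 24 h of 1002 to 1003 untreated and 411 to 580 with AM21, and so were the 3 erythroid markers (median -1.05, 3 at an unadjusted p under 0.05), with 4068 to 4341 and 2011 to 2212. None of these passed after adjustment, and their part in the repair gene values was not tested.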

How the data were processed

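Total RNA of pooled liver was amplified, labelled with biotin and hybridised, per the labels' protocols. The deposited log2 values are RMA values, made by the authors with Affymetrix Expression Console (submitters' processing notes; no version is given in the sources used here). RMA aligns the arrays' distributions and would hide a shift common to most genes. Values ran from 0.481 to 13.3, with array medians of 4.11 to 4.23; arrays give no read depth, and their number limits precision. Of 36685 probe sets 18511 carry 1 symbol, 575 several and 17599 none; 18394 were found in the GRCr8 RefSeq table and 0 symbols were updated. The array's build was not matched to GRCr8. The brightest probe set stood for each of 18166 genes, with no filter on level.

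Models were fitted by limma 3.58.1 (R 4.3.3) through lmFit and eBayes, and p-values were adjusted by Benjamini-Hochberg (threshold 0.05). PHx was fitted with the pool as fixed block (3 residual degrees of freedom), as were its interactions with diet and AM21 (1). The pairing comes from the animal identifiers in the labels. Diet and AM21 effects came from an additive fit (4); the estimated correlation within pools, -0.324, was set to 0. On simulated arrays of 18166 genes, each gene's spread was taken from the fit of pool and time, and no differences between pools were put in. There the PHx fit recovered 33 of 50 genes changed by 1 and 47 of 50 changed by 2 on the log2 scale. The diet fit recovered 32 and 47.

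All members are described, with every array's value for the 10 largest rises, for falls and for genes that went against their role; of the other repair genes, the 5 largest rises and falls that passed are named. The members, the lists and this rule were chosen with earlier results of these data known. The alternatives were a level minimum of 5, a variance prior with trend, the mean over probe sets, centred arrays, other blocks and models, and leaving out pools or arrays.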

Additional observations from a re-analysis of the deposited data

Results flagged for a closer look

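In 6 genes the difference between EtOH and CHO was positive in both pairs of arrays at 0 h and negative in both at 24 h, a turn that 12.4% of all genes made in either direction and 17.1% of the 35. Of the 6 proliferation genes, Mki67, Top2a, Ccnb1, Cdk1 and Pcna made the same turn, Ccnb1 from 1.66 and 1.53 to -0.41 and -1.28. Values are given for the untreated and then the AM21 pair. Bard1 went from 0.54 and 0.44 to -0.99 and -0.81. Fancd2 went from 0.40 and 0.53 to -0.38 and -1.06, and Brip1 from 0.43 and 0.33 to -0.21 and -0.93. Brca1 went from 0.23 and 0.28 to -0.35 and -0.72. The differences for Rbbp8 were 0.37 and 0.62, then -0.48 and -0.17, and those for Xrcc2 were 0.28 and 0.24, then -0.48 and -0.22. Bard1, Fancd2, Brip1 and Xrcc2 were above the receptor percentile on no 0 h array and Brca1 on 1, so their 0 h differences rest on readings near that level. Rbbp8 was above it on all 4. The turn of sign was not tested; the interaction of PHx with diet, which is the change in these differences, had adjusted p (limma) of 0.184 for Bard1, 0.334 for Fancd2, 0.427 for Brip1, 0.522 for Brca1, 0.466 for Rbbp8 and 0.631 for Xrcc2.

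Mus81 changed by -0.01 and -0.10 after PHx in the CHO pools and by 0.03 and 0.05 in the EtOH pools. Opposite signs by diet of this kind were found in 9.26% of all genes and in 2.86% of the 35, and the turn of sign was not tested. The interaction had an adjusted p (limma) of 0.980, and Mus81 was never above the receptor percentile.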

How the results depend on the processing

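No called value changed sign under any alternative run; sign changes of values that passed in neither fit were not counted. Without the replicate block, which ignores the pairing of the pools, 1191 genes rose and 945 fell after PHx, 26 and 1 of them repair genes, and no interaction passed. With a mean level of at least 5, 11 repair genes rose, of the 18 then tested. That mean is over the arrays of both times, so a rise helps a gene to be tested. Brca1 (mean 4.31 at 0 h and 6.0 at 24 h) and Bard1 (3.81 and 6.45) reached it through their 24 h arrays and are among the 11. Rad50 did not pass on centred arrays (adjusted p = 0.0634). For the interaction of PHx with diet, the level minimum gave 6 genes higher and 40 lower, among them Bard1 (adjusted p = 0.0306), whose mean level reaches 5 through its 24 h arrays, so 1 repair gene passed, and the trended prior gave 80 and 187, 3 of them repair genes. The trended prior gave 36 genes higher and 31 lower for the interaction with AM21. The diet effect called 33 genes higher and 7 lower with the level minimum, 49 and 9 with the trend, 1 and 2 on 0 h arrays alone, 0 and 0 on 24 h arrays alone, 66 and 37 with all 2-way interactions, and 164 and 56 with the estimated correlation kept. The AM21 effect called 2 genes lower with all 2-way interactions. The causes were not tested. Leaving out 1 pool at a time gave 505 to 694 genes higher and 366 to 450 lower after PHx, with 17 to 22 repair genes higher and 0 to 1 lower. Leaving out 1 array at a time gave 0 to 4 genes higher and 0 to 2 lower with diet. The interactions were also fitted without each pool, which leaves a diet or a treatment with 1 pool, and those fits are not described here. Signal near the receptor level limits what can be said of genes with low values, and 17 of the 35 have a mean level under 5.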

Other observations

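The change of the 88 other repair genes after PHx was smallest in the EtOH untreated pool for 37 genes (42.0%, against 23.4% of all genes) and largest in CHO AM21 for 31 (35.2%, against 24.1%). Their median changes were 0.25 in CHO untreated, 0.18 in CHO AM21, 0.15 in EtOH untreated and 0.26 in EtOH AM21. The diet difference in the response was negative for 52 of the 88 with a median of -0.06, and by limma 0 passed, with 9 at an unadjusted p under 0.05.

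In a principal component analysis of the 35 genes the first component held 91.5% of the variance, against 49.4% over all genes. Of the 35, 26 rose after PHx, against 5.65% of all genes, and no other set of similar size was analysed. The larger share is therefore not read as a trait of repair genes.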
